A study of Mus musculus with 6 samples.

Results

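The photoreceptor cyclic nucleotide gated channels were examined through the BMAL1 antibody peaks at their 4 genes in mouse retina. Cnga3 and Cngb3 encode the subunits of the cone channel, and Cnga1 and Cngb1 those of the rod channel. A peak was counted when its summit lay inside one of these genes or within 10 kb of it. This gave 64 of the 320474 peaks listed over all libraries, 38 at the cone genes and 26 at the rod genes. The members were chosen by the listed summit positions themselves, so their counts and folds are a description, with no test. A peak inside Cnga3 was singled out because short lists hold it too, and its presence is no independent result.

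The series holds 6 chromatin immunoprecipitation sequencing libraries of whole retina, made with a rabbit antibody raised against the clock transcription factor BMAL1. Mice with a conditional knockout of Bmal1 gave 3 libraries (Bmal1 CKO), and wild-type mice gave 3 (Control). Both were C57BL/6, had no outside treatment and were weaned at postnatal day 20, per the labels. The labels used here name neither the driver of the deletion nor the cells it reaches, nor age or time of day at collection. Nor do they say whether a library is 1 animal or a pool. Antibody peaks give no expression, so the tissue could not be checked against cell markers. Since the retina was taken whole, fewer cells with a signal and less signal per cell cannot be told apart, and no peak can be assigned to cones or rods.

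Photoreceptors hold these channels open in darkness, when cyclic GMP is bound to them. Light sets off the breakdown of cyclic GMP, the channels close, and the cell hyperpolarises. The A subunits (Cnga1, Cnga3) form conducting channels on their own in expression systems, and the B subunits (Cngb1, Cngb3) modify how the channel gates. In people, loss of the cone subunits is a known cause of achromatopsia, and loss of the rod subunits of retinitis pigmentosa. BMAL1 with its partner CLOCK binds the E-box, whose letters are CACGTG.

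Promoter sequences are shown because, of the channel genes with a promoter window, Cngb1 alone had a summit in it. Of all 32851 promoter windows, 17.5% held a summit of Bmal1 CKO 2, 19.2% one of Control 1 and 8.69% one of both. With so few genes nothing was read from this count. RefSeq (GRCm38.p6, the coordinates of mm10) gave 4 windows for 3 of the 4 genes, Cnga3 having 2 start sites. Each runs from 250 bases before to 50 bases after a start site, 5′ to 3′ on the gene's strand. The windows are Cngb1 at chr8:95306536-95306835 (minus strand), Cnga1 at chr5:72642703-72643002 (minus strand) and the first Cnga3 start site at chr1:37218028-37218327 (plus strand). Capitals mark every match, on either strand, to the 4 motifs searched: CACGTG, the E-box-like CACGTT, the photoreceptor homeodomain letters TAATCC, and the nuclear receptor letters AGGTCA.
Cngb1: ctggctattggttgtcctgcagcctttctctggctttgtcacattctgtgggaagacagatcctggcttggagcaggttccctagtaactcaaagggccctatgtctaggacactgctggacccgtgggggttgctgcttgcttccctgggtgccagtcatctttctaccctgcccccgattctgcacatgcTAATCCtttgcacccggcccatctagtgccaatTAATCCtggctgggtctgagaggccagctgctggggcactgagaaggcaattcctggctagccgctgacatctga
Cnga1: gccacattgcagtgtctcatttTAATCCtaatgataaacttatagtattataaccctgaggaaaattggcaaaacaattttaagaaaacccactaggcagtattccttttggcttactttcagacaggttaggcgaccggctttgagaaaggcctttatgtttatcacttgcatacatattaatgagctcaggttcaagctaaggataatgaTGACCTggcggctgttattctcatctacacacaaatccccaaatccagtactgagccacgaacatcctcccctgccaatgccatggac
Cnga3: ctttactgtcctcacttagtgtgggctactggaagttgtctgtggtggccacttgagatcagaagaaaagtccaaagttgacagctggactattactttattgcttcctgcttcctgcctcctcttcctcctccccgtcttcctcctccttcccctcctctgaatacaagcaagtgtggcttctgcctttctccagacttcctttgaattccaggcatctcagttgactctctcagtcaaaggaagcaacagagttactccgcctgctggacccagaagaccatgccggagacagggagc

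None of the 4 windows held CACGTG or CACGTT, which 7.15% and 4.68% of 32851 promoter windows held. The Cngb1 window held TAATCC at 2 places, starting 58 and 25 bases before the start site. Homeodomain factors of photoreceptors such as CRX are known to bind such letters. Of all windows 7.06% held them at least once and 0.359% held 2 or more copies. The summit of Cngb1 fell on base 218 of the window in both Bmal1 CKO 2 and Control 1, between those copies at bases 193 and 226. The Cnga1 window held TAATCC once, 228 bases before the start site, and AGGTCA once on the other strand, and no library had a peak there. AGGTCA occurred in 16.3% of all windows. Neither Cnga3 window held any of the 4 motifs. No matches overlapped each other. These matches are letters in a window, not bound sites.

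All but 2 of the channel gene peaks came from the longest list of each genotype. Bmal1 CKO 1, 2 and 3 listed 1, 26 and 1 of them, and Control 1, 2 and 3 listed 36, 0 and 0. The lists held 1444, 138254 and 519 peaks in the Bmal1 CKO libraries and 179475, 410 and 372 in the Control libraries. Depth, read as the genome-wide background recovered from the deposited values, was 2.78, 5.83 and 0.560 fragments per base in the Bmal1 CKO libraries and 3.46, 0.609 and 0.852 in the Control libraries. Bmal1 CKO 1 was thus the third deepest library but listed far fewer peaks than Control 1, so that list length did not follow depth alone. With 1 long list per genotype, every contrast of long lists below has no replicate check.

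All 4 channel genes had a peak in or within 10 kb of the gene in both long lists, as had 87.8% of protein-coding genes in Bmal1 CKO 2 and 92.6% in Control 1. A share of that size says nothing particular about the channels. In the short lists 1 of the 4 genes, Cnga3, had a peak in Bmal1 CKO 1 and in Bmal1 CKO 3, where 1.98% and 1.07% of protein-coding genes had one. Control 2 and Control 3 listed none at the channel genes, with 0.777% and 0.754% of protein-coding genes called.

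**Figure D1:**
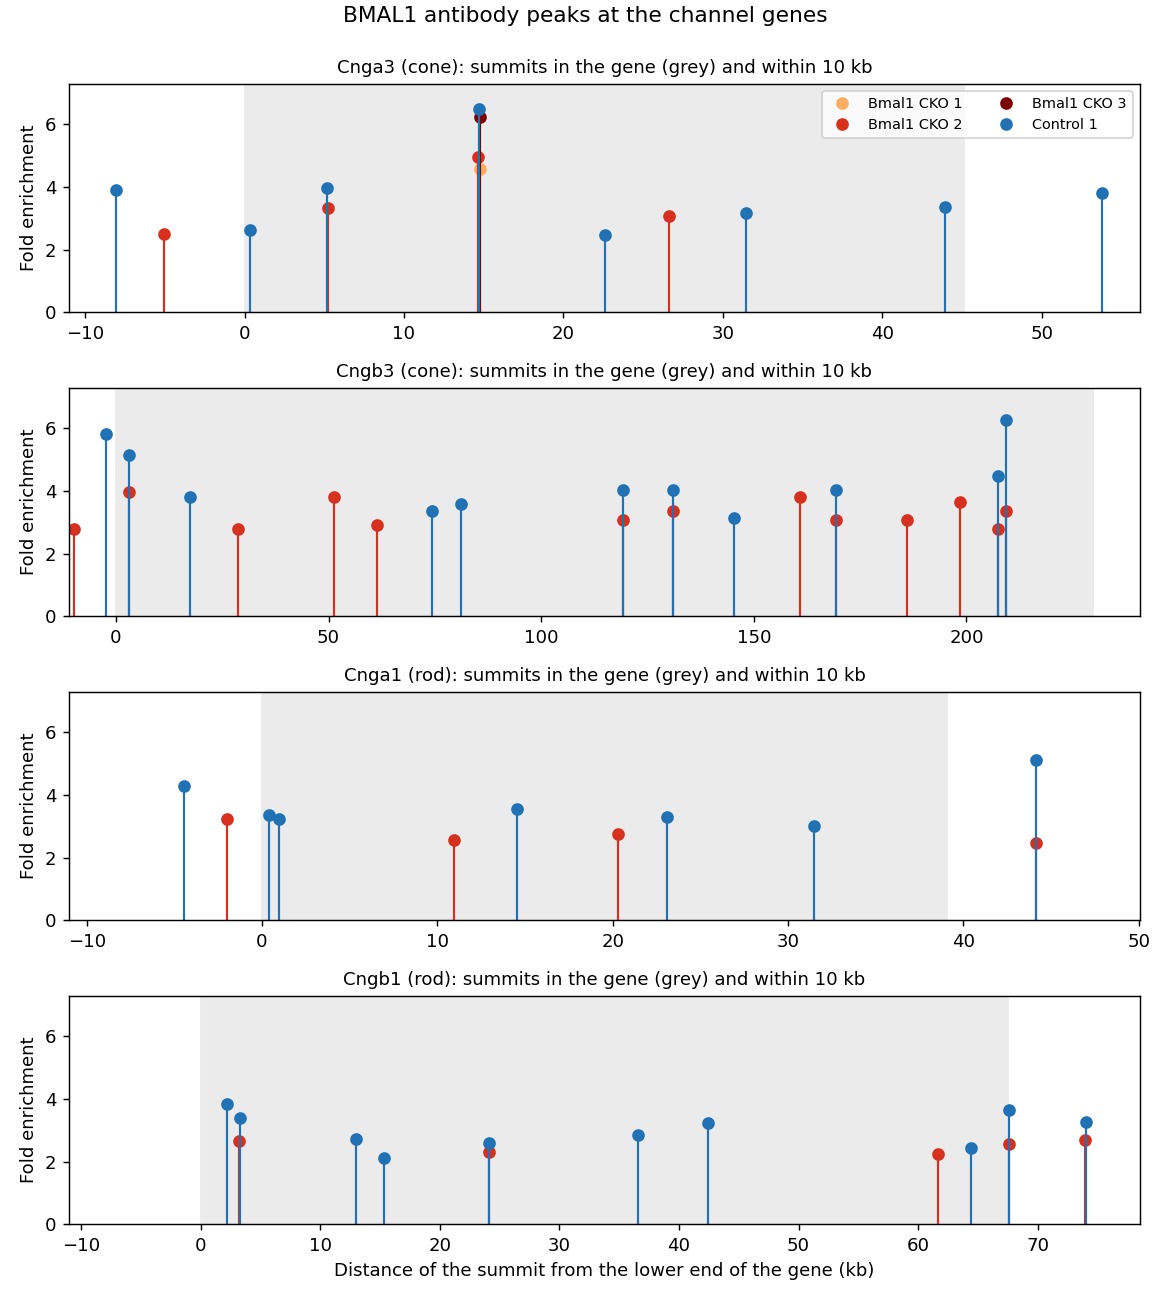
Summits (points) along the 4 channel genes, with distance from the lower end of the gene in kb on the x axis and the authors' fold enrichment on the y axis; grey marks the gene, colours the libraries. Bmal1 CKO 1 and Bmal1 CKO 3 appear at a single place, inside Cnga3, where the fold was 4.56 and 6.25.

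Cnga3, which encodes the conducting subunit of the cone channel (chromosome 1, 37218241 to 37263384), carried the strongest channel gene peak of the series. It was listed by 4 libraries. The summit lay at 37233037 in Bmal1 CKO 1, at 37232911 in Bmal1 CKO 2, at 37232980 in Bmal1 CKO 3 and at 37232921 in Control 1. These 4 summits span 126 bp, 14670 to 14796 bp inside the lower end of the gene, and the 4 peaks have 201 bp in common. Whether the place is exonic or intronic was not analysed here.

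The fold at this peak was 4.56, 4.96 and 6.25 in Bmal1 CKO 1, 2 and 3, against 6.49 in Control 1. The peaks were 210, 509 and 201 bp wide in Bmal1 CKO 1, 2 and 3, and 495 bp wide in Control 1. The −log10 p-value was 10.8, 24.6 and 9.79 in the Bmal1 CKO libraries and 28.2 in Control 1. The width and the −log10 p-value were therefore both greater in the long lists, one of each genotype. Within its own list the fold stood at percentile 47.3, 98.5 and 38.3 in Bmal1 CKO 1, 2 and 3, and at percentile 98.5 in Control 1. The peak thus ranked near the top of the long lists and in the middle or lower part of the short ones.

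The fragments stacked at the summit, solved from the fold and p-value, numbered 24 (95% Poisson interval 15.4 to 35.7) in Bmal1 CKO 1. They numbered 61 (46.7 to 78.4) in Bmal1 CKO 2, 12 (6.20 to 21.0) in Bmal1 CKO 3 and 54 (40.6 to 70.5) in Control 1. The local background was 4.48, 11.5 and 1.08 fragments in the Bmal1 CKO libraries and 7.48 in Control 1, which is 1.61, 1.97, 1.93 and 2.16 times each library's genome-wide level. Intervals cover counting error only, and a summit is by definition the highest point of its peak. Divided by the genome-wide level, the summit stood at 8.62 (5.52 to 12.8) in Bmal1 CKO 1, 10.5 (8.0 to 13.4) in Bmal1 CKO 2, 21.4 (11.1 to 37.4) in Bmal1 CKO 3 and 15.6 (11.7 to 20.4) in Control 1. The Control 1 value fell within the spread of the 3 Bmal1 CKO values.

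Control 2 and Control 3 did not list this peak. At the median local background of the listing libraries, scaled to depth, the weakest p-value of the Control 2 list needed at least 10 fragments and that of Control 3 at least 11. Scaled to the depth of Control 2, the summit counts came to 5.25 from Bmal1 CKO 1, 6.37 from Bmal1 CKO 2, 13.1 from Bmal1 CKO 3 and 9.51 from Control 1. Scaled to Control 3, they came to 7.34, 8.91 and 18.3 from the 3 Bmal1 CKO libraries and 13.3 from Control 1. Of these 8 scaled counts, 5 fell below the limit. The other 3 had intervals whose lower ends, 6.75, 9.43 and 9.99, also lay below it. At the lower, genome-wide background the limit was 8 fragments in both Control libraries. Bmal1 CKO 3, with a depth of 0.560 shallower than both, listed the peak with 12 fragments. The part of depth in its absence from the Control 2 and Control 3 lists was not tested.

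**Figure D2:**
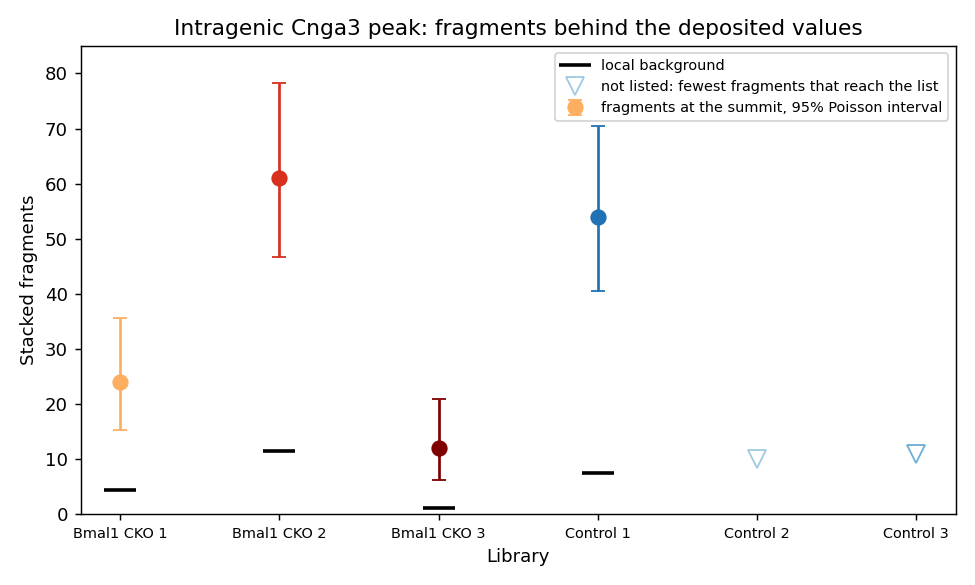
Stacked fragments at the intragenic Cnga3 summit (points, with 95% Poisson intervals) and local background (black bars) in each library that lists the peak; open triangles give the fewest fragments that would reach the lists of Control 2 and Control 3, which do not. Counts ran from 12 in Bmal1 CKO 3 to 61 in Bmal1 CKO 2, against limits of 10 and 11.

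Regions called in exactly the same libraries, the 3 Bmal1 CKO and Control 1, numbered 90 after overlapping peaks were merged. They made up 48.4% of the 186 regions called in exactly 4 libraries. The mirror pattern, the 3 Control libraries with Bmal1 CKO 2, had 1 region. Bmal1 CKO 1 listed more peaks than Control 2 and Control 3 together and was deeper than both, so these counts cannot be told apart from depth and list length. Of the 90 regions, 32 (35.6%) lay inside a protein-coding gene. By Euclidean distance over the log2 folds of those 4 libraries, the 5 genes with the region most like that of Cnga3 were Dhx8 (0.281), Gm7592 (0.290), Tmem267 (0.317), Col6a6 (0.402) and Muc6 (0.407).

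Other Cnga3 peaks were weaker and appeared in the long lists only. Bmal1 CKO 2 listed 4 peaks there and Control 1 listed 8, the intragenic one included. A peak at 37223482 in Bmal1 CKO 2 and 37223427 in Control 1 was shared, with 40 and 31 fragments and folds of 3.33 and 3.98. Near the start of the gene, Control 1 alone had a summit at 37218583, 305 bases past the first start site, with a fold of 2.61 from 22 fragments (13.8 to 33.3). It lay between the promoter windows of the 2 start sites, and no peak of Bmal1 CKO 2 overlapped it. The remaining folds were 2.51 and 3.06 in Bmal1 CKO 2 and ran between 2.46 and 3.90 in Control 1.

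Cngb3, which encodes the modulatory subunit of the cone channel (chromosome 4, 19280850 to 19510623), is the longest of the 4 genes at 229.8 kb. Bmal1 CKO 2 listed 13 peaks there and Control 1 listed 11. The fold ranged over 2.78 to 3.95 in Bmal1 CKO 2 and 3.14 to 6.28 in Control 1, from 18 to 26 and 13 to 27 fragments. The highest fold was 3.95 at 19283914 in Bmal1 CKO 2, a peak that Control 1 listed 1 bp away at 19283913 with a fold of 5.16. In Control 1 the highest was 6.28 at 19490242, whose partner in Bmal1 CKO 2, at 19490273, had 3.37. Control 1 also had a fold of 5.83 at 2306 bp below the lower end, with no overlapping peak in Bmal1 CKO 2. No peak lay within 1 kb of either end of the gene. The 6 shared pairs ran from 3064 bp inside the lower end to 20350 bp inside the upper end, by the summits of Bmal1 CKO 2. The 4 pairs not yet given had folds of 2.78 to 3.37 in Bmal1 CKO 2 and 4.04 to 4.48 in Control 1. One Control 1 summit, at 19298388, fell inside the annotated pseudogene Gm11877.

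All 24 Cngb3 peaks had a local background equal, to 2 decimals, to the genome-wide level of their library, 5.83 fragments in Bmal1 CKO 2 and 3.46 in Control 1. Over the whole lists this held for 38.3% and 33.0% of peaks. At the other 3 genes no peak did, and their local background was 1.11 to 2.37 times the genome-wide level in Bmal1 CKO 2 and 1.02 to 3.09 times in Control 1. Folds at Cngb3 therefore take few distinct values, 7 among 13 peaks and 9 among 11. A fold there also rests on fewer fragments than the same fold at Cngb1, where the background was at its highest.

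**Figure D3:**
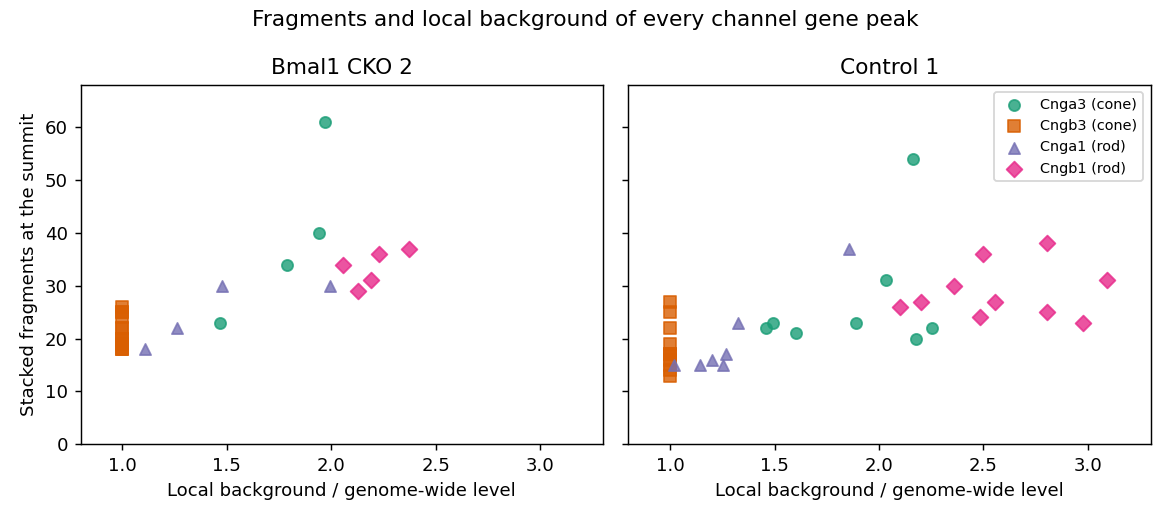
Fragments at the summit (y axis) against the local background as a multiple of the genome-wide level (x axis) for every channel gene peak of Bmal1 CKO 2 and Control 1; marker shape and colour give the gene. Cngb3 peaks stand at 1 in both panels and Cngb1 peaks above 2, and the intragenic Cnga3 peak lies highest, at 61 and 54 fragments.

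Cnga1, which encodes the conducting subunit of the rod channel (chromosome 5, 72603696 to 72642752), had 4 peaks in Bmal1 CKO 2 and 7 in Control 1. The only shared pair lay outside the gene, 5087 and 5085 bp above the upper end, and fell 43 and 41 bp inside the lower end of the neighbour Nipal1. It had 30 fragments and a fold of 2.45 in Bmal1 CKO 2, against 37 fragments and a fold of 5.12 in Control 1. Inside the gene Bmal1 CKO 2 had folds of 2.55 and 2.75 from 18 and 22 fragments. Inside it Control 1 had 5 peaks with folds of 3.00 to 3.54 from 15 to 17 fragments, 2 of them within 1 kb of the lower end, at 72604076 and 72604653, the end away from the start site. The intragenic peaks of Cnga1 thus rested on fewer fragments than the list medians of 23 in Bmal1 CKO 2 and 20 in Control 1. The median over the Cngb3 peaks was also below the list median, at 20 and 17. None of the intragenic Cnga1 peaks was shared. The highest fold of Bmal1 CKO 2, 3.23, and a fold of 4.30 in Control 1 lay below the lower end of the gene. One Control 1 summit, at 72626771, fell inside the annotated pseudogene Gm5297.

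Cngb1, which encodes the modulatory subunit of the rod channel and proteins rich in glutamic acid (chromosome 8, 95239043 to 95306585), had 5 peaks in Bmal1 CKO 2 and 10 in Control 1. Its promoter peak, shown by sequence above, had the same summit, 95306618, in both libraries, 33 bases before the start site. It was made of 37 fragments (26.1 to 51.0) over a background of 13.8 in Bmal1 CKO 2, and of 38 fragments (26.9 to 52.2) over 9.70 in Control 1. The fold was 2.56 in Bmal1 CKO 2 and 3.64 in Control 1. The fragment counts were thus nearly equal, while the background was higher in the deeper Bmal1 CKO 2. Further pairs were shared at 95263125 and 95263124, with folds of 2.32 and 2.60, at 95242253 and 95242315, with 2.64 and 3.38, and at 95313041 and 95313099, with 2.69 and 3.27, in Bmal1 CKO 2 and Control 1. The last of these lay above the upper end of Cngb1, inside the neighbour Tepp, and had the highest fold of Bmal1 CKO 2. The highest fold in Control 1 was 3.84 at 95241277, near the end away from the start site, with no overlapping peak in Bmal1 CKO 2.

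Start sites and gene ends, where most genes had a summit in the long lists, were called at some of the channel genes. Of the 3 genes with an annotated start site, Bmal1 CKO 2 had a summit within 500 bp of it at 1 (Cngb1) and Control 1 at 2 (Cnga3 and Cngb1), where 53.7% and 62.5% of protein-coding genes with a start site had one. Within 1 kb of either gene end Bmal1 CKO 2 had a summit at 1 of 4 genes and Control 1 at 3 of 4, where 58.9% and 69.5% of all protein-coding genes had one. With so few genes nothing was read from these shares.

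Cone and rod genes were set side by side per 100 kb of gene and flanks, because Cngb3 is much longer than the others. In Bmal1 CKO 2 the density was 6.14 peaks per 100 kb at Cnga3, 5.20 at Cngb3, 6.77 at Cnga1 and 5.71 at Cngb1, with a median of 6.50 over all protein-coding genes. In Control 1 it was 12.3 at Cnga3, 4.40 at Cngb3, 11.9 at Cnga1 and 11.4 at Cngb1, with a median of 9.63. Among all protein-coding genes these densities stood at percentiles 47.2, 40.9, 52.1 and 44.2 in Bmal1 CKO 2 and 67.2, 17.0, 64.5 and 61.7 in Control 1. Cngb3 was lowest in both lists, and Cnga3 lay among the rod genes rather than beside its cone partner. Pooled by class, cone minus rod was −0.741 peaks per 100 kb in Bmal1 CKO 2 and −5.56 in Control 1, both set by Cngb3.

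**Figure D4:**
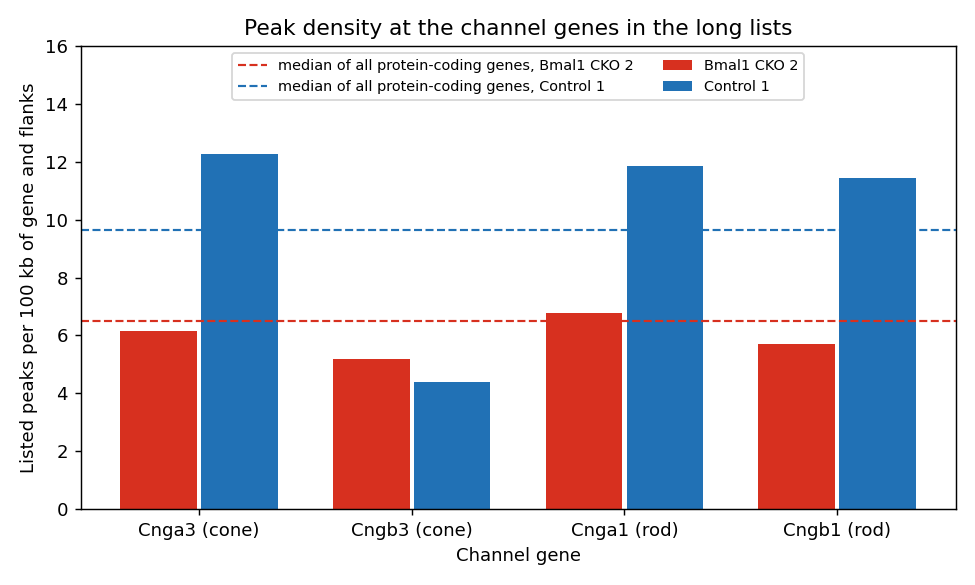
Listed peaks per 100 kb of gene and flanks (bars) at each channel gene in Bmal1 CKO 2 and Control 1, with the median over all protein-coding genes of each list (dashed lines). In Control 1, Cngb3 at 4.40 stands below the other 3 genes, which lie between 11.4 and 12.3.

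The median fold was higher at the cone genes, 3.07 against 2.56 at the rod genes in Bmal1 CKO 2 and 3.90 against 3.27 in Control 1. The pooled median number of fragments ran the other way. It was 22 at cone and 30 at rod genes in Bmal1 CKO 2, and 21 and 25 in Control 1. Cngb3 gave 13 of the 17 cone peaks in Bmal1 CKO 2 and 11 of the 19 in Control 1. By gene the fragment medians did not split by class. For Cnga3, Cngb3, Cnga1 and Cngb1 they were 37, 20, 26 and 34 in Bmal1 CKO 2. In Control 1 they were 22.5, 17, 16 and 27. The pooled median background was 5.83 and 12.0 fragments for cone and rod genes in Bmal1 CKO 2, and 3.46 and 7.62 in Control 1. The cone values are the genome-wide level, at which all Cngb3 peaks stood. By gene, Cnga3 had a higher median background than Cnga1, 10.9 against 7.98 in Bmal1 CKO 2 and 6.79 against 4.34 in Control 1. Its median fold was also higher, 3.20 against 2.65 and 3.59 against 3.35. Cngb1 had the highest median background, 12.8 and 8.74, and the lowest median fold, 2.56 and 3.05. The part of the local background in the difference of folds was not tested. No test of cone against rod was made, since the peaks were chosen with the lists known and each class holds 2 genes.

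Between genotypes, channel gene peaks made up 0.693, 0.188 and 1.93 of every 1000 listed peaks in Bmal1 CKO 1, 2 and 3, and 0.201, 0 and 0 in Control 1, 2 and 3. The means were 0.936 ± 0.895 in Bmal1 CKO and 0.0669 ± 0.116 in Control libraries (SD, n = 3 each), a difference of 0.869 that is below the SD of the Bmal1 CKO libraries. Without Bmal1 CKO 3 the difference was 0.373. The full difference rested on the intragenic Cnga3 peak alone, and without that peak it was −0.00473. For cone minus rod density, the Bmal1 CKO libraries had 0.318, −0.741 and 0.318 peaks per 100 kb and the Control libraries −5.56, 0 and 0. The means were −0.0353 ± 0.611 and −1.85 ± 3.21 (SD, n = 3 each), and the difference of 1.82 turned to −0.0353 without Control 1 and was 2.75 without Control 2 or Control 3. No test of genotype was made, since the peaks were chosen with the lists known.

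The long lists shared 13 channel gene peaks, which was 50% of the 26 in Bmal1 CKO 2 and 36.1% of the 36 in Control 1. Over the whole lists 54.1% of Bmal1 CKO 2 peaks overlapped Control 1 and 40.7% of Control 1 peaks overlapped Bmal1 CKO 2. The channel genes therefore lay close to the lists as a whole. By gene, 2 of the 4 Bmal1 CKO 2 peaks at Cnga3, 6 of 13 at Cngb3, 1 of 4 at Cnga1 and 4 of 5 at Cngb1 were shared. The summits of a pair lay 0 to 150 bp apart, with a median of 31 bp. The fold was higher in Control 1 in all 13 pairs, as it was in 88.3% of the 71595 regions called in both lists. The fragment count was higher in Bmal1 CKO 2, the deeper library, in 9 of the 13. The share for fragments over all regions called in both lists was not computed, so nothing particular was read from that count. Folds of libraries of different depth do not show whether binding differed.

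Among 18 related genes, chosen for their place in the same signalling chain or channel family, 17 had a peak in or within 10 kb of the gene in Bmal1 CKO 2 and the same number in Control 1, where 87.8% and 92.6% of all protein-coding genes had one. None had a peak in the 4 short lists, where 0.754% to 1.98% of protein-coding genes had one. These counts lie near the shares over all genes and say nothing particular about the related genes. The 18 were other channels gated or modulated by cyclic nucleotides (Cnga2, Cnga4, Hcn2, Hcn3, Hcn4), the cyclases and their activators that make cyclic GMP (Gucy2e, Gucy2f, Guca1a, Guca1b), and the phosphodiesterase subunits that break it down (Pde6a, Pde6b, Pde6c, Pde6g, Pde6h). The list also held the exchangers that remove the calcium entering through the channels (Slc24a1, Slc24a2) and the disc rim proteins Prph2 and Rom1. Cnga2, an olfactory channel subunit, was the gene without a peak in either long list. The median density of the 18 genes was 9.21 peaks per 100 kb in Bmal1 CKO 2 and 13.1 in Control 1. All 4 channel genes lay below those medians. At a gene end, 10 of the 18 had a summit in Bmal1 CKO 2 and 13 in Control 1, where 58.9% and 69.5% of protein-coding genes had one, so these counts too lie near those of all genes.

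The limit of 10 kb fixed which summits counted. The farthest summit inside it was 9739 bp below Cngb3, with a fold of 2.78 in Bmal1 CKO 2. The nearest outside it was 11858 bp above Cngb1, with a fold of 2.68 in the same list.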

How the data were processed

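Mouse retina was profiled by BMAL1 ChIP-seq in 3 Bmal1 CKO and 3 Control libraries. The series record ties each list to its library. The list names have a numbering of their own, other than that of the titles, so each value of a library or genotype depends on that record. Replicates are separate samples by their titles only, so their spread may be technical. Trim Galore, Bowtie2, MACS2 and the build mm10 are named in the submitters' processing notes without versions or settings. Whether an input library was used is not given in the sources used here. The authors deposited 1 peak list per library, with peaks called per library. The authors computed each fold enrichment (a ratio) before deposit from the summit and its local background, which may come from the same library or from an input. The deposited −log10 p-values and q-values refer to the summit, and the deposited score is 10 times the −log10 q-value, rounded down. These are the authors' values and were used to describe peaks within a list.

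Summits were placed 1-based and matched to RefSeq genes (GRCm38.p6; 21883 protein-coding genes). Fragments and background were solved from fold (pseudocount 1) and Poisson p-value. Fragment numbers came out whole, within 0.02, for 100.0% of peaks. The lowest background of a list was taken as its depth. The method was tested on simulated data. Peaks overlapped when they shared 1 bp. Motifs were searched in RefSeq promoter windows. Python 3.11.15, scipy 1.17.1 and pandas 2.3.3 were used.

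The genes, lists and rules were chosen with earlier results of these data known. Named were the 4 channel genes and, of their peaks, those in short lists, at gene ends, highest per gene and library, or shared by both long lists, and the 5 genes with the most similar region. Alternatives were the distance around a gene, a −log10 q-value of at least 5, a fold of at least 5, equal list length, other overlap rules and leaving out each library. Those without the long lists or without the intragenic Cnga3 peak were added after seeing the data. No exon annotation was used. A further related gene is not reported here.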

Additional observations from a re-analysis of the deposited data

How the results depend on the processing

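No paired analysis was possible because no result comes from a test. Of 59 recomputed values, 49 stayed within 1.5 times the reported count or 1 SD of the reported difference, 8 moved farther and 2 changed sign. The 49 include the counts of 0 and 1 in the short lists, which stayed as they were under every setting tallied for them. Equal list length was not tallied for the counts per library. Under it no channel gene peak remained in any list, so the counts of 1, 26 and 36 all fell to 0. The 49 also include the cone minus rod difference with equal list length, which was 0 against 1.82 as reported. The tally is therefore no measure of how stable the results are. For the difference in channel gene peaks per 1000 listed peaks, the values without single libraries ran from 0.373 (without Bmal1 CKO 3) to 1.24 (without Bmal1 CKO 2). It was 1.31 without the longest list of each genotype, 0 with equal list length (372 peaks) and −0.00473 without the intragenic Cnga3 peak, by construction since that peak is the only one in short lists. The difference in cone minus rod density ran from −0.0353 without Control 1 to 2.75 without Control 2 or Control 3, and was 0.318 without the longest lists. Within 50 kb the channel gene peaks numbered 44 in Bmal1 CKO 2 and 72 in Control 1. With a −log10 q-value of 5 or more they numbered 8 and 18, and 3 were shared. The intragenic Cnga3 peak was listed in 4 libraries at that limit, in 2 (Bmal1 CKO 3 and Control 1) at a fold of at least 5, and in 0 with equal list length. Regions with its library pattern numbered 67 at that −log10 q-value. Control 2, Control 3 and Bmal1 CKO 3 were the shallowest libraries, and their listed peaks begin at 8, 9 and 6 fragments. The part of depth in the content of these lists was not tested.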

Other observations

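In the promoter windows of all genes, the E-box letters CACGTG were found more often where a summit lay. They occurred in 10.6% of the 2855 windows with a summit in both Bmal1 CKO 2 and Control 1, and in 5.84% of the 23645 windows with a summit in neither. TAATCC, which the Cngb1 window holds at 2 places, went the other way, at 4.27% and 7.92%. The median GC content of these windows was 63.7% and 49.3%, so base composition moved with both shares, and its part was not tested.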
